A study of Mus musculus with 9 samples.

Results

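Genes that act in mitosis and cytokinesis were followed through bulk RNA-seq of G1E, a progenitor line of the mouse erythroid lineage that has no functional Gata1. The set held 47 genes named for their roles, namely mitotic cyclins and kinases and genes of the spindle assembly checkpoint, anaphase onset, the chromosomal passenger complex, the kinetochore, the spindle, cytokinesis and chromosome condensation. Each of the 47 had 1 row among the 27999 gene rows of the deposited count table, of which 15024 held any count, and all 47 passed the filter on low counts that left 9978 genes tested. Cells had been spin-infected with virus made in 293T cells from the HMD vector carrying a human GATA1 mutant, carrying human wildtype GATA1, or empty. All 3 groups were G1E cells grown with murine stem cell factor and erythropoietin, and each held 3 libraries that the series calls biological replicates. The sources used here give neither the mutation nor the time from infection to lysis nor any selection of infected cells. G1E is a single line, and p-values measure only how far these libraries of it varied. In bulk RNA, a change in the share of cells in mitosis and a change of RNA per cell cannot be told apart.

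Mitotic entry is driven by CDK1 bound to cyclin A or cyclin B, with the Polo and Aurora kinases acting beside it. The spindle assembly checkpoint holds the anaphase-promoting complex back until every kinetochore is attached, after which CDC20 activates that ligase and securin and cyclin B are destroyed. Most of these genes are transcribed in G2 and mitosis under the MuvB, B-MYB and FOXM1 proteins, and in maturing erythroblasts the last divisions run beside hemoglobin production before the cells leave the cycle.

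Library totals ranged from 11364358 to 17289307 counts, and the smallest count of any of the 47 genes in a library was between 214 and 538. Human GATA1 stood at 653 ± 53.9 CPM (read counts scaled by library size) with the mutant, 817 ± 103 CPM in wildtype cells and 0.0476 ± 0.0825 CPM in empty vector cells (SD, n = 3). The 13 erythroid markers summed to between 3883 and 4062 CPM in mutant cells, 21408 and 31775 CPM in wildtype cells and 2719 and 3010 CPM in empty vector cells. Of these 13, 11 were called higher and 2 lower with the wildtype than with the empty vector. With the mutant, 6 were called higher and 0 lower than with the empty vector. Of all tested genes, 11.4% were called higher and 11.9% lower with the wildtype than with the empty vector. The shares with the mutant were 0.21% and 0.0601%. The 12 mast cell and basophil markers, with Mcpt8, Mcpt4 and Tpsb2 at 0, summed to between 916 and 1021 CPM in mutant cells, 360 and 407 CPM in wildtype cells, and 1023 and 1194 CPM in empty vector cells. Only 6 of them were tested. Against the empty vector, 5 of these 6 were called lower with the wildtype and 2 with the mutant, and 0 higher with either. Kit and Gata2 were in both this list and the erythroid list. The 11 megakaryocyte markers, with Gp1bb and Vwf at 0, summed to between 66.1 and 78.2 CPM in mutant cells, 77.8 and 93.1 CPM in wildtype cells and 85.9 and 103 CPM in empty vector cells. Of the 7 that were tested, 1 was called higher and 4 lower with the wildtype than with the empty vector. The 12 granulocyte and monocyte markers, with Elane, Ctsg, Itgam and Ly6c2 at 0, summed to between 10.5 and 11.8 CPM in mutant cells, 3.95 and 4.48 CPM in wildtype cells and 11.95 and 13.9 CPM in empty vector cells. Of the 5 that were tested, 3 were called lower with the wildtype than with the empty vector. The 9 lymphoid markers, with 6 at 0, summed to below 1 CPM in every library. The part of these markers in the results below was not tested. Within each group replicate 3 stood apart from replicates 1 and 2 in how its counts leaned with the GC content of transcripts. The rank correlation of a library's deviation with GC content was 0.54, 0.52 and -0.15 for mutant replicates 1, 2 and 3, 0.16, 0.15 and -0.37 for the wildtype, and -0.57, -0.41 and 0.37 for the empty vector, so the empty vector ran opposite to the others.

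Wildtype GATA1 raised 9 of the 47 genes over the empty vector and lowered 1. The 9 were Ccna2, Ccnb2, Aurka, Cdc20, Pttg1, Birc5, Cenpa, Nusap1 and Cit, by 1.39-fold to 2.11-fold, and the 1 that fell was Kif23, to 0.78 of its empty vector level. By edgeR's quasi-likelihood test with Benjamini-Hochberg adjustment at 0.05, the 9 made 19.1% of the set against 11.4% of all tested genes called higher, and the 1 made 2.13% against 11.9% called lower. The median log2 fold change was 0.14 over the 47 genes and -0.04 over all tested genes, and 34 of 47 stood above 0, against 4573 of 9978 genes. The groups stood apart without overlap, wildtype higher, for 13 members (15.3% of all genes did so) and, wildtype lower, for 1 member (17.3%).

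With mutant GATA1, 12 of the 47 genes were lower than with the wildtype and 0 were higher. They were Ccna2, Ccnb2, Aurka, Pttg1, Birc5, Cenpa, Nuf2, Spc24, Spc25, Nusap1, Hmmr and Cit, at 0.479 to 0.768 of their wildtype level. The 12 made 25.5% of the set, against 12.7% of all tested genes called lower, and the count of 0 stood against 13.2% of all genes called higher; DESeq2 also called 0 higher, and at an unadjusted p under 0.05 the counts were 0 higher and 16 lower, against 2004 higher and 1894 lower of the 9978 genes. A block on the replicate number in the 6 libraries compared, described below, was chosen after seeing the data. With it, 1 member was higher and 20 lower. The median log2 fold change was -0.13 over the members and -0.01 over all tested genes. Mutant libraries lay wholly below wildtype libraries for 17 members (20.9% of all genes) and wholly above them for 2, Bub1b and Kif23 (23.3%).

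Against the empty vector, mutant GATA1 changed 0 of the 47 genes in either direction by the same edgeR test, where 0.21% of all tested genes were called higher and 0.0601% lower. DESeq2 also called 0, and 4 members had an unadjusted p under 0.05: Bub1 and Spc25 with negative and Cit and Mki67 with positive log2 fold changes. Over all 9978 genes, 1284 had such a p. The median log2 fold change was 0.01 over the members and -0.000522 over all tested genes. Mutant libraries lay wholly above the empty vector for Cit alone (8.19% of all genes did so) and wholly below it for Cenpa, Cdk1 and Kif23 (6.84%). Summed over the 47 genes, the level was 8779 ± 269 CPM in mutant cells, 10210 ± 255 CPM in wildtype cells and 8884 ± 257 CPM in empty vector cells (SD, n = 3), and the sums ranged over 8552 to 9076 CPM in mutant, 9992 to 10491 CPM in wildtype and 8599 to 9096 CPM in empty vector libraries. Any 2 of the 3 comparisons share a group, so their values are given side by side and are not independent of each other.

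**Figure D1:**
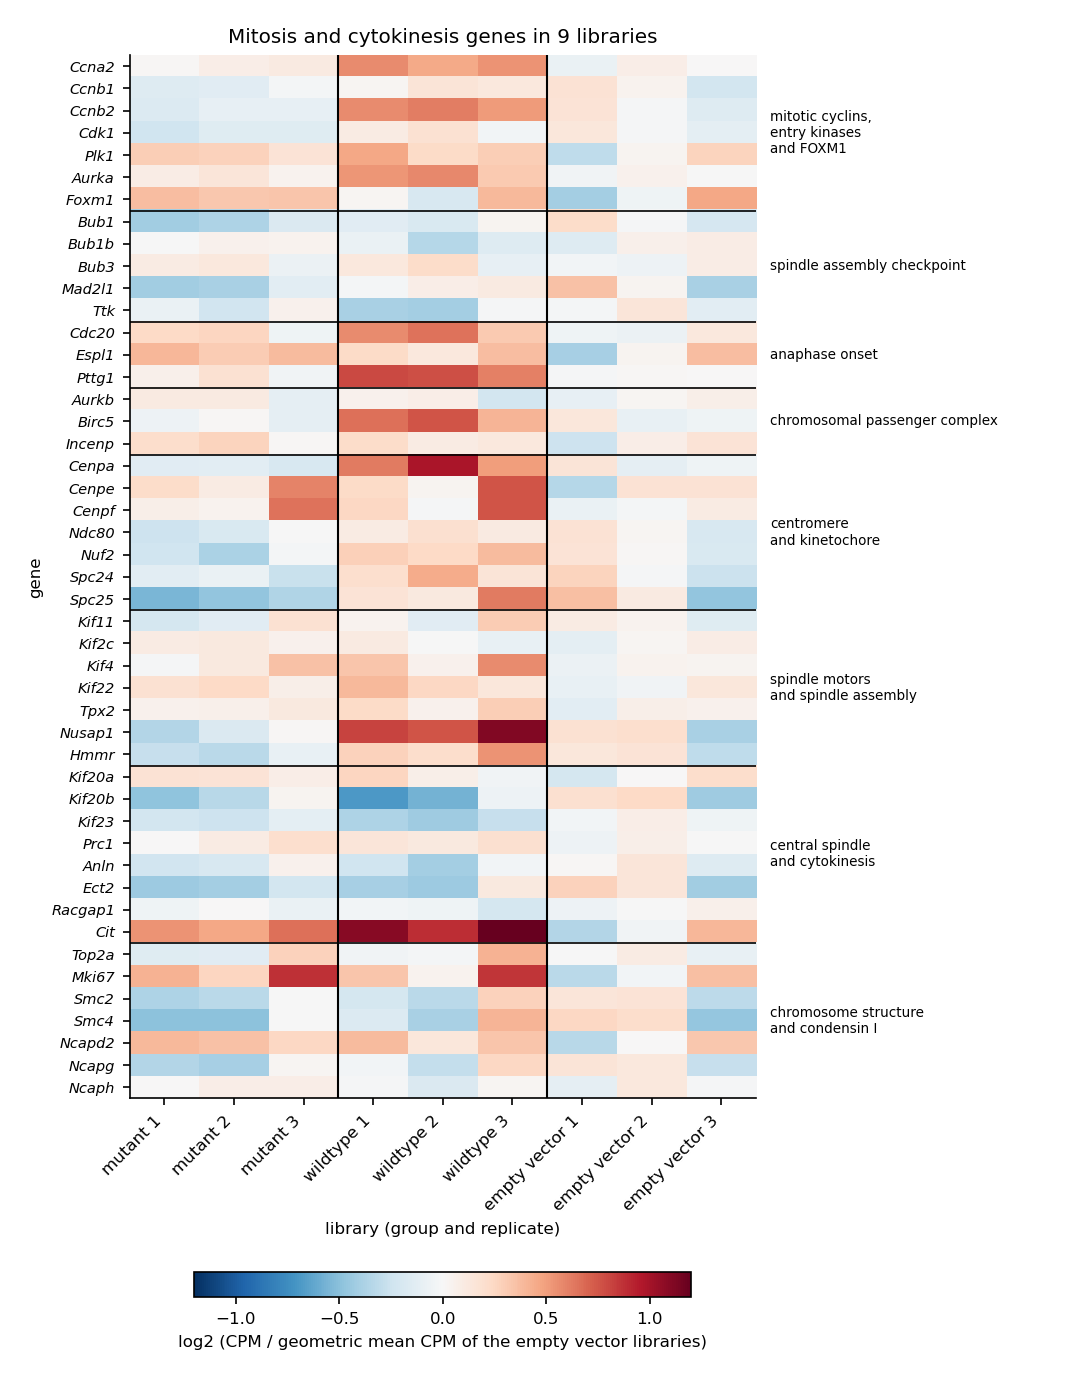
Heat map of the 47 mitosis and cytokinesis genes (rows, grouped by role) in the 9 libraries (columns, by group and replicate); colour gives log2 of CPM over the geometric mean CPM of the 3 empty vector libraries. The 3 wildtype columns are red for Pttg1, Cenpa, Nusap1 and Cit, while Cenpe, Cenpf and Mki67 are red in replicate 3 of both GATA1 groups and paler in replicates 1 and 2.

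The promoters of these genes are known for letters that bind the MuvB complex and NF-Y, and the starts of 7 genes are printed because 6 of them rose and 1 fell with wildtype GATA1. Each run holds the 100 bases before the transcription start and the 25 bases from it on, written on the strand of the gene, from RefSeq on GRCm38.p6. Capitals mark TTTGAA and TTCGAA, the core letters of the cell cycle genes homology region, and CCAAT, the NF-Y letters, on either strand, so ATTGG is CCAAT on the other strand. The positions are chr9:70421530-70421654, minus strand for Ccnb2, chr5:30666786-30666910, plus strand for Cenpa, chr4:118437319-118437443, minus strand for Cdc20, chr2:119618198-119618322, plus strand for Nusap1, chr11:43425957-43426081, minus strand for Pttg1, chr11:117849137-117849261, plus strand for Birc5 and chr9:61946775-61946899, minus strand for Kif23.
Ccnb2: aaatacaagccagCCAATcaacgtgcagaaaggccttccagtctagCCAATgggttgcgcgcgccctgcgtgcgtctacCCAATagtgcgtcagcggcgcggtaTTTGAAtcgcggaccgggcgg
Cenpa: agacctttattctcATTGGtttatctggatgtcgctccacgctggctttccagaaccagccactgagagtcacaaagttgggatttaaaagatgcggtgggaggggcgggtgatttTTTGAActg
Cdc20: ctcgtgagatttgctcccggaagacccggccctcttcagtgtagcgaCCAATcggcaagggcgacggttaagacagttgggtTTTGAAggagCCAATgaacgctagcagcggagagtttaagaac
Nusap1: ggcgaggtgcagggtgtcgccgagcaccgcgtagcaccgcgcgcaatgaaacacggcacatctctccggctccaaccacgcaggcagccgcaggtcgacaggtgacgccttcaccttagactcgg
Pttg1: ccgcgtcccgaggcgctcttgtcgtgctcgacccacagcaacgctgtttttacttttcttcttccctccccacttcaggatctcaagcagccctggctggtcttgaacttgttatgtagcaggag
Birc5: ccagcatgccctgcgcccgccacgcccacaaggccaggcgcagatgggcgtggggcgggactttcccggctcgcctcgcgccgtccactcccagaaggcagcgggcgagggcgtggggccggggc
Kif23: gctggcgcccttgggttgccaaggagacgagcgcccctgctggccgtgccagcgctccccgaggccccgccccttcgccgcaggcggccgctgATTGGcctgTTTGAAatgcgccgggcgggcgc

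Ccnb2, Cenpa, Cdc20 and Kif23 hold TTTGAA and CCAAT in these runs, and the runs of Nusap1, Pttg1 and Birc5 hold neither. A promoter entry, 250 bases before to 50 bases after a start, was found for 39 of the 47 genes, and those of 3 had 2 starts, where a match in either counted; Aurkb, Ccna2, Foxm1, Incenp, Kif20a, Smc4, Spc24 and Tpx2 had none. TTTGAA was in 29 of the 39 (74.4%), against 20.2% of 27025 genes with an entry and 13.9% of the 7641 tested genes with one. CCAAT was in 28 (71.8%), against 41.1% of the 27025 genes and 44.3% of the 7641, and TTCGAA in 3 (7.69%), against 1.80% and 2.60%. Both a homology region core and CCAAT were in 26 (66.7%), against 8.61% and 6.91%. GATA, the core letters that GATA factors bind, was in 24 (61.5%), against 61.5% of 27025 genes and 48.9% of the 7641 tested genes. It was in 8 of the 10 genes with an entry that were lower with the mutant than with the wildtype and in 16 of the other 29. Split by the rise with the wildtype over the empty vector, GATA was in 5 of 8 genes (62.5%) and 19 of the other 31 (61.3%). These splits were not tested. Both strands were searched, and 2 pairs of different motifs shared bases. Among the genes that rose with the wildtype, 4 of 8 with an entry held TTTGAA (50%), against 25 of the other 31 (80.6%), a description of few genes with no test. Within the first 24 bases from the start on, a TTTGAA match began in 25.6% of members and 1.22% of all genes, with 1 start used per gene. Among the stretches of the entry compared, this one had the highest share of members. A match gives letters and not a bound site.

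Mitotic cyclins, entry kinases and FOXM1 held 3 of the 9 raised genes. Ccna2, cyclin A2, a CDK partner from S phase to early mitosis (chr3:36564865-36572150, minus strand, GRCm38), had 464, 483 and 493 CPM in mutant cells, 677, 626 and 665 CPM in wildtype cells and 433, 483 and 458 CPM in empty vector cells, in replicate order as in all such triples. All wildtype libraries were above all others, and mutant and empty vector overlapped. It rose with the wildtype over the empty vector (log2 fold change 0.52 ± 0.10, edgeR adjusted p 0.00261) and was lower with the mutant than with the wildtype (-0.45 ± 0.10, adjusted p 0.00669). Ccnb2, cyclin B2, a CDK1 partner (chr9:70407692-70421547, minus strand), had 212, 223 and 222 CPM in mutant cells, 353, 365 and 339.9 CPM in wildtype cells and 266, 236 and 214 CPM in empty vector cells. Its wildtype libraries again stood clear of the other 2 groups, with log2 fold changes of 0.56 ± 0.11 for wildtype over empty vector (edgeR adjusted p 0.00243) and -0.69 ± 0.11 for mutant over wildtype (adjusted p 0.000655). Aurka, the Aurora A kinase of centrosomes and spindle poles (chr2:172356190-172370535, minus strand), had 184, 190.2 and 178 CPM in mutant cells, 249, 257 and 214 CPM in wildtype cells and 167, 179 and 172 CPM in empty vector cells. The wildtype was the high group, by 0.47 ± 0.11 over the empty vector (edgeR adjusted p 0.00624), and mutant over wildtype was -0.38 ± 0.11 (adjusted p 0.02).

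Cdk1 and Ccnb1, the kinase and the B-type cyclin at the centre of mitotic entry, were not called by the main edgeR test. With the block in 6 libraries they were lower with the mutant than with the wildtype (edgeR adjusted p 0.0133 and 0.038). Cdk1 was also called lower there without a block: with length and GC offsets, without wildtype replicate 3 (edgeR adjusted p 0.0456) and with replicates 1 and 2 alone. Cdk1 had 284, 303 and 303 CPM in mutant cells, 359, 381 and 328 CPM in wildtype cells and 367, 332 and 308 CPM in empty vector cells, and only the mutant stood clear of the others, on the low side (mutant over wildtype -0.26 ± 0.11, edgeR adjusted p 0.0978). Ccnb1 had 379, 385 and 415 CPM in mutant cells, 429, 471 and 461 CPM in wildtype cells and 477, 437 and 364 CPM in empty vector cells (wildtype over empty vector 0.09 ± 0.12, edgeR adjusted p 0.612). Its empty vector libraries spanned both other groups, and its values are uncertain, since 4 pseudogenes match its transcript at 96.6% to 99.2% identity and the handling of reads with several matches is not given. Plk1, the Polo kinase, had 196, 194 and 179.5 CPM in mutant cells, 221, 188 and 196 CPM in wildtype cells and 129.9, 164 and 192 CPM in empty vector cells (wildtype over empty vector 0.31 ± 0.14, edgeR adjusted p 0.121). Its empty vector libraries ranged widely and reached the wildtype range in replicate 3. Foxm1, the transcription factor that activates many genes of this set, had log2 fold changes of 0.05 ± 0.21 for wildtype over empty vector and 0.25 ± 0.21 for mutant over wildtype, with edgeR adjusted p of 0.897 and 0.403.

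**Figure D2:**
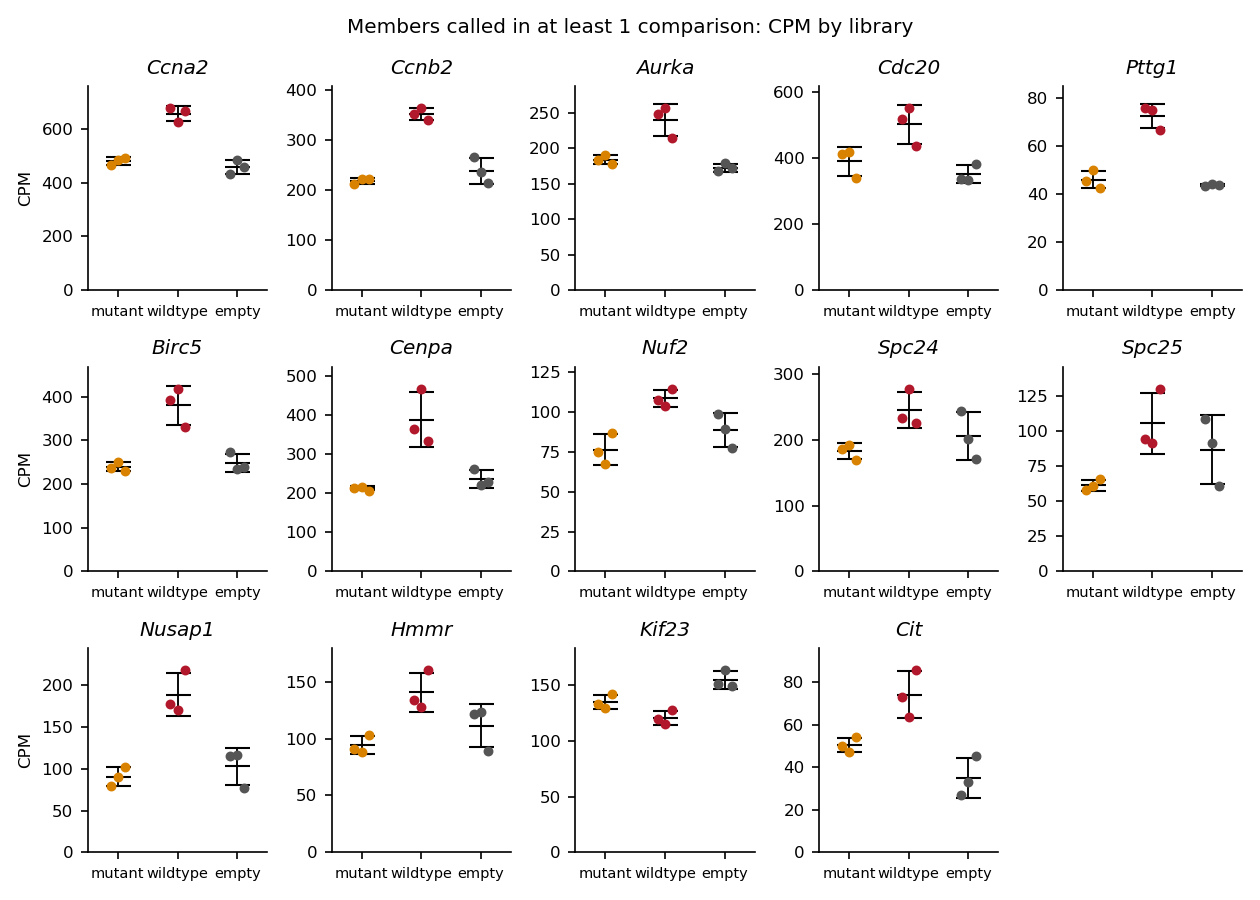
CPM in each library (points, replicates 1 to 3 from left to right) with mean and SD (bars, n = 3) for the 14 genes called in at least 1 comparison; groups run mutant, wildtype, empty vector and axes start at 0. The 3 wildtype points lie above all other points for every gene shown except Spc24, Spc25 and Kif23, and below them for Kif23.

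Of the 5 spindle assembly checkpoint genes, 0 were called in any comparison by the main edgeR test. Of all tested genes, 0.21% were called higher and 0.0601% lower for mutant over empty vector. The shares were 11.4% and 11.9% for wildtype over empty vector, and 13.2% and 12.7% for mutant over wildtype. With the block in 6 libraries, a fit chosen after seeing the data, mutant over wildtype called 3 of the 5 genes. Mad2l1 (-0.37 ± 0.08, edgeR adjusted p 0.00123) and Bub1 (-0.23 ± 0.08, adjusted p 0.0237) were lower and Bub1b (0.22 ± 0.08, adjusted p 0.0418) higher. The block with all 9 libraries fitted did not call these genes. Bub1, the kinase that loads the checkpoint on kinetochores, had -0.33 ± 0.13 for mutant over empty vector (adjusted p 0.355), with the smallest adjusted p of the 5 in that comparison. Mad2l1, the MAD2 protein that inhibits CDC20, had log2 fold changes of -0.34 ± 0.16 for mutant over empty vector, 0.03 ± 0.16 for wildtype over empty vector and -0.36 ± 0.16 for mutant over wildtype (edgeR adjusted p 0.405, 0.925 and 0.118). Bub1b, the BUBR1 subunit of the checkpoint inhibitor, Bub3, which docks BUB1 and BUBR1, and Ttk, the MPS1 kinase, had wildtype over empty vector values of -0.19 ± 0.11, 0.09 ± 0.12 and -0.27 ± 0.14. Unadjusted p under 0.05 was reached by 1 of the 5 for mutant over empty vector, 0 for wildtype over empty vector and 1 for mutant over wildtype, and DESeq2 called 0. Over all 9978 genes, 1284, 3639 and 3898 reached such a p in these comparisons, in that order.

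Of the 3 genes of anaphase onset, Cdc20 and Pttg1 rose with wildtype GATA1 and Espl1 was not called. Cdc20, the activator of the anaphase-promoting complex (chr4:118432901-118437352, minus strand), had 413, 418 and 339 CPM in mutant cells, 518, 551 and 436 CPM in wildtype cells and 338, 335 and 383 CPM in empty vector cells. Every wildtype library was above every library of the other groups. The log2 fold change was 0.51 ± 0.13 for wildtype over empty vector (edgeR adjusted p 0.0113). Mutant over wildtype was -0.36 ± 0.13 and missed the threshold (edgeR adjusted p 0.0532). Cdc20 was called lower there in 7 of 22 alternatives. Among them were RLE scaling factors, DESeq2, length and GC offsets, and the block in 6 libraries (edgeR adjusted p 0.0012). Pttg1, securin, the inhibitor of separase (chr11:43420250-43426251, minus strand), had 45.6, 49.8 and 42.5 CPM in mutant cells, 75.8, 74.8 and 66.6 CPM in wildtype cells and 43.2, 44.1 and 43.9 CPM in empty vector cells. Wildtype libraries stood well clear, at 1.65-fold the empty vector (log2 fold change 0.73 ± 0.12, edgeR adjusted p 0.000587) and with a mutant over wildtype difference of -0.66 ± 0.12 (adjusted p 0.00139). Espl1, separase, the protease that cuts cohesin, had 0.21 ± 0.16 for wildtype over empty vector (edgeR adjusted p 0.377) and 0.12 ± 0.16 for mutant over wildtype (adjusted p 0.621).

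In the chromosomal passenger complex, Birc5 rose and its partners did not pass the test. Birc5, survivin, which targets the complex to centromeres (chr11:117849251-117855743, plus strand), had 237, 251 and 230.2 CPM in mutant cells, 392, 418 and 330.4 CPM in wildtype cells and 273, 234 and 240.2 CPM in empty vector cells. The wildtype libraries lay above the other 2 groups, which overlapped, with 0.61 ± 0.12 for wildtype over empty vector (edgeR adjusted p 0.00236) and -0.67 ± 0.12 for mutant over wildtype (adjusted p 0.00144). Aurkb, the Aurora B kinase of the complex, had 321, 321 and 276 CPM in mutant cells, 309, 315 and 257 CPM in wildtype cells and 279, 304 and 313 CPM in empty vector cells. The 3 groups overlapped, and wildtype over empty vector was -0.02 ± 0.12 (edgeR adjusted p 0.904). Incenp, the scaffold of the complex, had 0.14 ± 0.13 in that comparison (adjusted p 0.453). The difference in response between Birc5 and its partners was not tested.

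Centromere and kinetochore genes gave 4 of the 12 genes that were lower with the mutant than with the wildtype, and all 7 had negative log2 fold changes there. The 4 made 57.1% of the 7, against 12.7% of all genes called lower. Cenpa, the histone H3 variant that marks centromeres (chr5:30666777-30674830, plus strand), had 214, 216 and 206 CPM in mutant cells, 364, 466 and 333 CPM in wildtype cells and 262, 219.6 and 228 CPM in empty vector cells. The wildtype was the high group and the mutant lay just below the empty vector without overlap. Log2 fold changes were 0.71 ± 0.13 for wildtype over empty vector (edgeR adjusted p 0.00184), -0.87 ± 0.13 for mutant over wildtype (adjusted p 0.0005) and -0.16 ± 0.13 for mutant over empty vector (adjusted p 0.596).

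The NDC80 complex, which ties kinetochores to microtubules, is made of Ndc80, Nuf2, Spc24 and Spc25, of which the last 3 were lower with the mutant than with the wildtype. Spc25 (chr2:69193895-69206194, minus strand) had 57.6, 60.8 and 65.6 CPM in mutant cells, 94.3, 91.5 and 129.8 CPM in wildtype cells and 108, 91.1 and 60.6 CPM in empty vector cells. Mutant libraries were below all wildtype libraries, while empty vector replicate 3 was at the mutant level and its replicates 1 and 2 near the wildtype. Mutant over wildtype was -0.78 ± 0.20 (edgeR adjusted p 0.0118) and wildtype over empty vector 0.28 ± 0.19 (adjusted p 0.322). Nuf2 (chr1:169497934-169531464, minus strand) had 74.8, 67.6 and 86.9 CPM in mutant cells, 107, 104 and 114 CPM in wildtype cells and 98.9, 89.1 and 77.7 CPM in empty vector cells, with the wildtype clear of both. Mutant over wildtype was -0.51 ± 0.13 (edgeR adjusted p 0.0131) and wildtype over empty vector 0.29 ± 0.13 (adjusted p 0.121). Spc24 (chr9:21755442-21760303, minus strand) had 186, 193 and 169 CPM in mutant cells, 233, 277 and 226 CPM in wildtype cells and 244, 202 and 171 CPM in empty vector cells, which reached from the mutant range into the wildtype range. Mutant over wildtype was -0.43 ± 0.14 (edgeR adjusted p 0.0401). Ndc80 had -0.27 ± 0.12 in that comparison (adjusted p 0.121, and 0.0141 with the block in 6 libraries). Cenpe and Cenpf, a kinetochore kinesin and a large kinetochore protein, had -0.05 ± 0.21 and -0.09 ± 0.20.

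Among the 7 genes of spindle motors and spindle assembly, Nusap1 rose with the wildtype, and Nusap1 and Hmmr were lower with the mutant. Nusap1, which bundles and anchors spindle microtubules (chr2:119618298-119651244, plus strand), had 79.1, 89.6 and 102 CPM in mutant cells, 177, 170.4 and 218 CPM in wildtype cells and 115, 116 and 77.2 CPM in empty vector cells. Its wildtype libraries were above all others, and empty vector replicate 3 was below every mutant library. The difference was 1.83-fold for wildtype over empty vector (log2 0.87 ± 0.17, edgeR adjusted p 0.00214), and mutant over wildtype was -1.06 ± 0.17 (adjusted p 0.000612), the most negative value of the 47 there. Hmmr, a hyaluronan receptor that also acts at spindle poles (chr11:40701395-40733422, minus strand), had 91.1, 88.0 and 103 CPM in mutant cells, 134, 128 and 160.3 CPM in wildtype cells and 121, 124 and 89.3 CPM in empty vector cells. The wildtype was clear of both groups, with mutant over wildtype at -0.58 ± 0.14 (edgeR adjusted p 0.0118) and wildtype over empty vector at 0.33 ± 0.14 (adjusted p 0.113). The motors Kif11, which pushes spindle poles apart, Kif2c, which depolymerises microtubules, and Kif22 and Kif4, which ride on chromosome arms, and Tpx2, which activates Aurora A, were not called, and their wildtype over empty vector values ran from 0.00 for Kif2c to 0.33 for Kif4.

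Central spindle and cytokinesis genes went both ways with wildtype GATA1. Cit, citron kinase of the cleavage furrow and midbody (chr5:115845278-116008947, plus strand), had 50.1, 47.4 and 54.3 CPM in mutant cells, 73.3, 63.6 and 85.9 CPM in wildtype cells and 26.8, 33.3 and 45.3 CPM in empty vector cells. The groups formed 3 separate steps, with the wildtype highest and the empty vector lowest. Wildtype over empty vector was 2.11-fold (log2 1.08 ± 0.18, edgeR adjusted p 0.000827), the most positive value of the 47, mutant over wildtype was -0.55 ± 0.18 (adjusted p 0.0368), and mutant over empty vector was 0.52 ± 0.18 (adjusted p 0.333). Kif23, the kinesin of the centralspindlin complex (chr9:61915905-61946774, minus strand), had 133, 129.8 and 142 CPM in mutant cells, 119.8, 115 and 127 CPM in wildtype cells and 151, 164 and 149 CPM in empty vector cells. Its groups also formed 3 steps, with the empty vector highest, and wildtype over empty vector was -0.36 ± 0.10 (edgeR adjusted p 0.024). Racgap1, the partner of Kif23 in centralspindlin, had -0.10 ± 0.10 in that comparison (adjusted p 0.513). Ect2, an exchange factor of cytokinesis, Anln, the anillin scaffold of the furrow, Kif20b, a midzone kinesin, Kif20a, the kinesin MKLP2, and Prc1, which crosslinks midzone microtubules, were not called, with wildtype over empty vector values of -0.25, -0.23, -0.44, 0.09 and 0.15.

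The 7 genes of chromosome structure and condensin I held 0 called genes in every comparison by the main edgeR test, and DESeq2 also called 0. By edgeR, 11.4% of all tested genes were called higher and 11.9% lower for wildtype over empty vector. The shares were 13.2% and 12.7% for mutant over wildtype, and 0.21% and 0.0601% for mutant over empty vector. With the block in 6 libraries, chosen after seeing the data, Smc4 and Ncapg were lower with the mutant than with the wildtype. The values were -0.28 ± 0.08 (edgeR adjusted p 0.0114) for Smc4 and -0.22 ± 0.08 (adjusted p 0.0294) for Ncapg. The block with all 9 libraries fitted did not call Smc4 or Ncapg. Top2a, the topoisomerase that untangles sister chromatids, had 518, 520.4 and 694 CPM in mutant cells, 553, 562 and 765 CPM in wildtype cells and 568, 612 and 536 CPM in empty vector cells. Replicate 3 of both GATA1 groups was high, and all groups overlapped. Mki67, the Ki-67 protein that coats mitotic chromosomes, had 167, 149.8 and 230.0 CPM in mutant cells, 157, 129 and 227 CPM in wildtype cells and 99.6, 122 and 161 CPM in empty vector cells (mutant over empty vector 0.52 ± 0.23, edgeR adjusted p 0.379). It showed the same high replicate 3 in both GATA1 groups, with overlap between all groups. The condensin subunits Smc2, Smc4, Ncapd2, Ncapg and Ncaph had wildtype over empty vector values of -0.08 ± 0.18, -0.04 ± 0.23, 0.26 ± 0.15, -0.02 ± 0.17 and -0.06 ± 0.11. At an unadjusted p under 0.05 the 7 genes gave 1 for mutant over empty vector, Mki67, and 0 in the other comparisons. Of all 9978 genes, 1284 had such a p for mutant over empty vector. The numbers were 3639 for wildtype over empty vector and 3898 for mutant over wildtype.

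**Figure D3:**
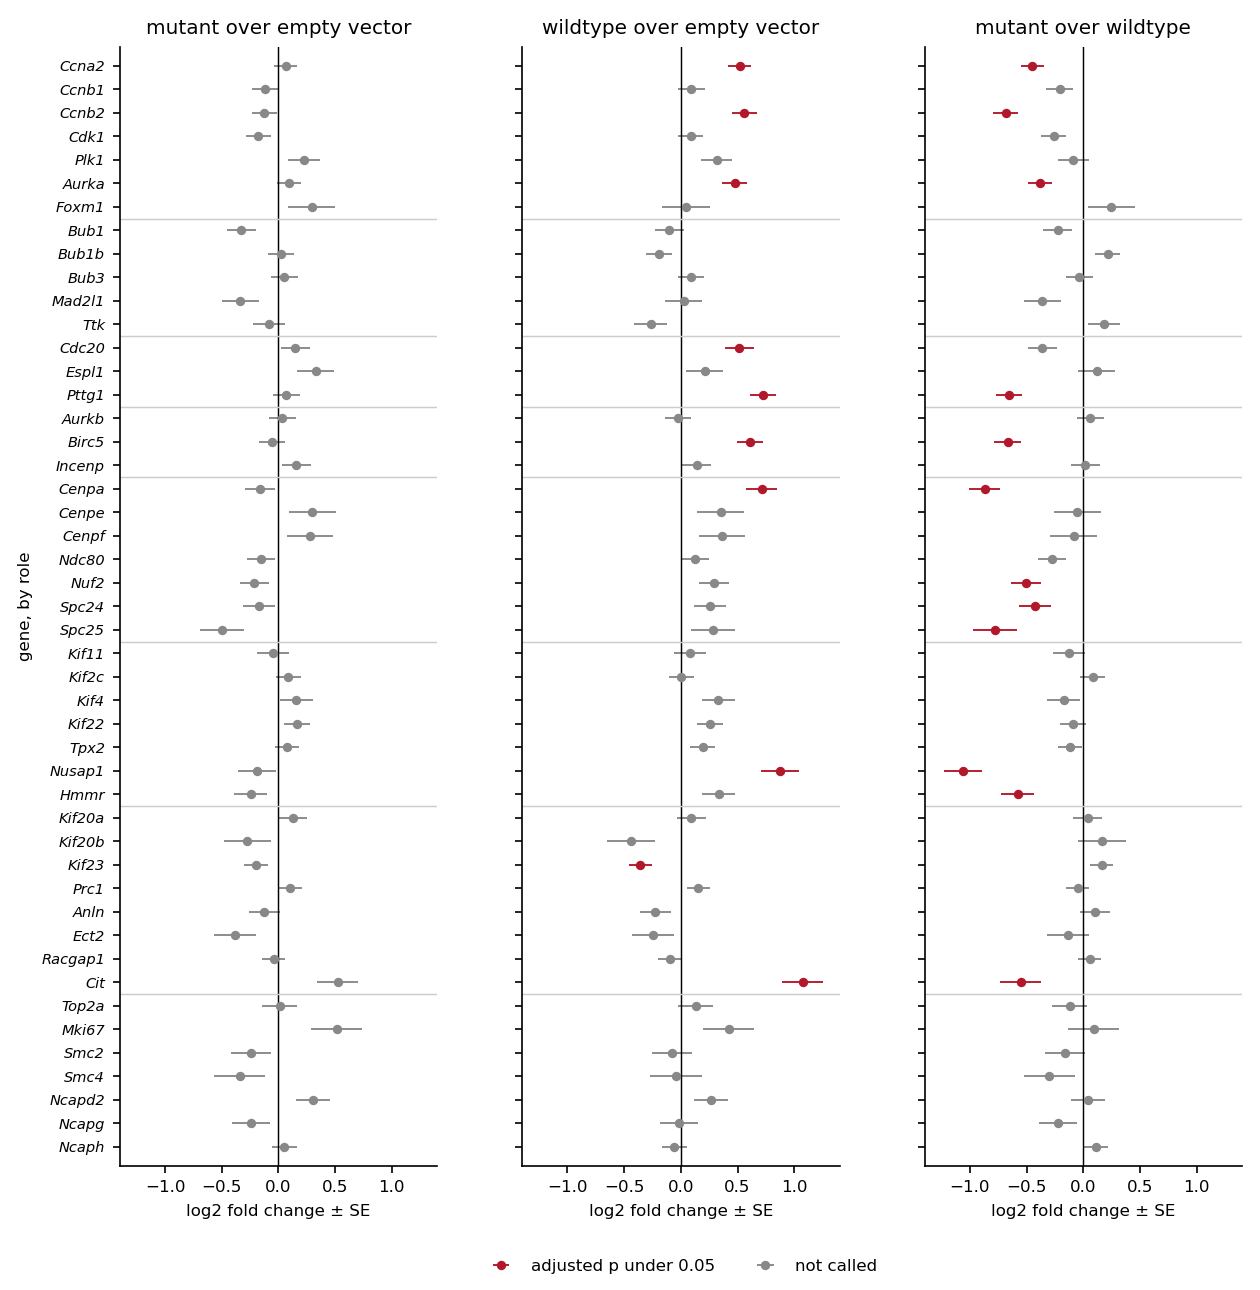
Log2 fold changes with SE (points and bars) of the 47 genes, by role from top to bottom, for mutant over empty vector, wildtype over empty vector and mutant over wildtype; red marks an edgeR adjusted p under 0.05. Red points number 0 in the first panel, 9 above 0 and 1 below in the second, and 12 below 0 in the third.

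Per length of exon, levels in the empty vector cells spread from 1.98 CPM per kb for Cenpf and 2.14 CPM per kb for Cit to 188 CPM per kb for Cdc20 and 156 CPM per kb for Ccnb2. The 5 highest were Cdc20, Ccnb2, Ccna2, Aurkb and Ccnb1, the last 2 at 101 CPM per kb each. With the wildtype, Cdc20 stood at 269 and Ccnb2 at 230.2 CPM per kb, and Cit at 4.52 CPM per kb stayed among the lowest of the set. These values divide gene counts by the merged exons of GENCODE M21, which overstates the length of genes whose cells use a short isoform.

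The rises with wildtype GATA1 differed in how far they held when libraries were left out. Pttg1, Birc5, Cenpa, Nusap1 and Cit were called in all 22 alternatives tried, whereas Cdc20 gave an edgeR adjusted p of 0.0627 without empty vector replicate 2, and the fall of Kif23 had 0.0705, 0.118, 0.076 and 0.121 without mutant replicate 1, wildtype replicate 1, wildtype replicate 2 and empty vector replicate 2. With offsets for transcript length and GC content, 22 members were higher and 1 lower with the wildtype, while calls over all genes went up to 1645 higher and 1842 lower, against 1137 and 1186 without offsets; leaving out wildtype replicate 3 gave 3 lower, with Ttk and Kif20b added (edgeR adjusted p 0.0403 and 0.0314). Leaving out empty vector replicate 3 gave 2 lower, with Kif20b added (0.0328), and 11 higher, with Plk1 and Ncapd2 added (0.0267 and 0.033). Kif4 was called higher without wildtype replicate 2 (0.0485).

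For mutant over wildtype, same-numbered libraries of the 2 groups deviated together (r of 0.17, 0.29 and 0.53 for numbers 1, 2 and 3). The largest r with a library of another number was 0.24 for numbers 1 and 2 and -0.29 for number 3. Blocking on the number in these 6 libraries gave 20 members lower and 1 higher, against 12 and 0 in the fit to all 9 libraries without a block. Calls over all genes went up as well, to 2417 lower and 2323 higher, against 1267 and 1313 in that fit. Without a block, these 6 libraries gave 1412 lower and 1437 higher. Against the fit to all 9 libraries, the block in 6 libraries added Ccnb1, Cdk1, Bub1, Mad2l1, Cdc20, Ndc80, Smc4 and Ncapg on the lower side. It added Bub1b on the higher side (log2 fold change 0.22, adjusted p 0.0418). Mad2l1 was also called lower in these 6 libraries without a block. Ccna2, Ccnb2, Pttg1, Birc5, Cenpa, Spc25 and Nusap1 were called in all 22 alternatives. Without single libraries the count ran from 7, without mutant replicate 2, to 14, without empty vector replicate 3. Aurka lost its call without any 1 of the mutant replicates or of wildtype replicates 1 and 2 (adjusted p 0.0626 to 0.0813), Spc24 without those or empty vector replicate 2 (0.062 to 0.146), and Cit without any 1 of the mutant replicates, wildtype replicates 1 or 3 or empty vector replicate 2 (0.0535 to 0.122). Nuf2 lost it without mutant replicates 1 or 2 (0.0533 and 0.0765), and Hmmr without mutant replicate 2 (0.0582), whereas Cdc20 gained one without wildtype replicate 3 (0.0157) or empty vector replicate 3 (0.0443), Cdk1 without wildtype replicate 3 (0.0456) and Mad2l1 without empty vector replicate 3 (0.0409). With library totals in place of TMM, Aurka, Spc24 and Cit also lost their calls. Spc24 and Cit lost them with upper-quartile factors, and Spc24 with length and GC offsets. Summing mutant replicates 1 and 2 lost the calls of Aurka, Nuf2, Spc24, Hmmr and Cit.

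The count of 0 for mutant over empty vector rested on empty vector replicate 3, as did the low count over all genes, which was 227 higher and 610 lower without that library, against 21 and 6 with it. Without it, Cit, Espl1 and Ncapd2 were called higher (log2 fold changes of 0.75, 0.53 and 0.48, edgeR adjusted p 0.0237, 0.043 and 0.047), and Mad2l1, Spc25 and Ect2 lower (-0.51, -0.70 and -0.56, adjusted p 0.0409, 0.0269 and 0.0493). Fitted to replicates 1 and 2 of each group alone, an alternative chosen after seeing the data, 8 members were higher and 12 lower in that comparison, and 1089 genes were higher and 1819 lower over the whole table.

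Log2 fold changes of the 47 genes moved with the GC content of their longest transcript. Spearman's rank correlation across the genes was 0.70 for mutant over empty vector, 0.31 for wildtype over empty vector and 0.22 for mutant over wildtype, against 0.57, 0.15 and 0.18 over 9656 tested genes with a length and GC content. Genes share the libraries, so these values are a description with no test, and the part of GC content in the results was not tested beyond the offsets. The 9 genes that rose with the wildtype had a median GC content of 48.7% and the other 38 members 45.8%. The 12 genes lower with the mutant than with the wildtype had 46.8%, and the other 35 members 46.3%.

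**Figure D4:**
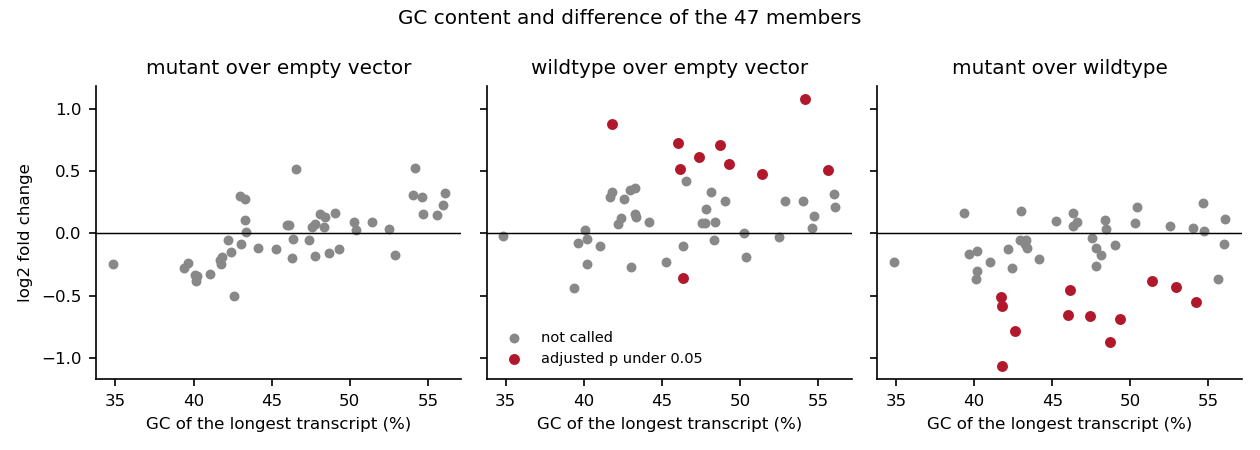
GC content of the longest transcript (horizontal axis, %) and log2 fold change (vertical axis) of the 47 genes in the 3 comparisons; red marks an edgeR adjusted p under 0.05. The cloud climbs with GC content for mutant over empty vector (rank correlation 0.70), and the red points of the other panels spread from 41.7% to 55.6% GC.

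Since the libraries keep no strand, reads of genes that overlap on opposite strands cannot be told apart. Ccna2 shares 510 bp of exon with Exosc9, which was not called, and Nusap1 shares 172 bp with Oip5, a centromere gene lower with the mutant than with the wildtype (-0.95 ± 0.23, edgeR adjusted p 0.0098). Kif4 shares 832 bp with Pdzd11, which rose with the wildtype (log2 fold change 0.56, adjusted p 0.00698), and Kif20a shares 1271 bp with Cdc23, which was not called. Plk1, Cdc20, Kif22, Prc1 and Ncapg also overlap a gene on the other strand, by 53 to 944 bp.

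A further 147 mitosis genes outside the set were listed in 9 groups, of which 144 were tested. Wildtype over empty vector gave 18 higher (12.5%) and 9 lower (6.25%), against 11.4% and 11.9% of all genes; mutant over wildtype gave 9 higher (6.25%) and 23 lower (16.0%), against 13.2% and 12.7%. Mutant over empty vector gave 0 by edgeR in either direction, with 14 of the 144 at an unadjusted p under 0.05, against 1284 of 9978 genes. Cdc25b, the phosphatase that activates CDK1 at mitotic entry, had 17.9, 16.5 and 15.0 CPM in mutant cells, 118, 95.7 and 87.4 CPM in wildtype cells and 14.6, 16.6 and 17.7 CPM in empty vector cells. The wildtype stood far above both other groups (2.62 ± 0.15 over the empty vector, edgeR adjusted p 8.80e-08; mutant over wildtype -2.61 ± 0.15, adjusted p 1.28e-07). Of the 13 genes of entry control and kinase regulators, 4 were higher with the wildtype than with the empty vector, among them Ensa, an inhibitor of the phosphatase PP2A-B55 (0.47 ± 0.13), and Ccnf, cyclin F (0.39 ± 0.12), and 0 lower.

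The anaphase-promoting complex and its E2 enzymes gave 4 higher and 1 lower of 18 with the wildtype over the empty vector, and 1 higher and 4 lower with the mutant over the wildtype. The shares were 22.2% and 5.56% in the first comparison, against 11.4% and 11.9% of all genes. In the second they were 5.56% and 22.2%, against 13.2% and 12.7%. Ube2c, the E2 enzyme that starts ubiquitin chains for the complex, had 259, 259 and 252 CPM in mutant cells, 501, 476 and 499.6 CPM in wildtype cells and 259.6, 292 and 262 CPM in empty vector cells. Its wildtype libraries were the high group by a wide margin (0.86 ± 0.10 over the empty vector, edgeR adjusted p 5.08e-05). Anapc5, a subunit of the complex, and Fbxo5, its inhibitor EMI1, rose by 0.58 ± 0.12 and 0.52 ± 0.11 on the log2 scale (adjusted p 0.003 and 0.00455). Anapc1, the largest subunit, was higher with the mutant than with the wildtype (0.40 ± 0.14, adjusted p 0.0477).

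Other kinetochore and centromere genes gave 0 higher and 10 lower of 33 with the mutant over the wildtype (30.3%), and 4 higher and 0 lower with the wildtype over the empty vector (12.1%). Of all genes, 13.2% were called higher and 12.7% lower in the first comparison, and 11.4% and 11.9% in the second. Cenpk, of the inner kinetochore, had 31.8, 32.7 and 41.8 CPM in mutant cells, 75.2, 73.1 and 109 CPM in wildtype cells and 79.9, 50.8 and 31.0 CPM in empty vector cells. The mutant lay below every wildtype library, and the empty vector reached into both ranges (mutant over wildtype -1.28 ± 0.28, edgeR adjusted p 0.00526). Mad2l1bp, the p31comet protein that switches the checkpoint off, rose with the wildtype over the empty vector (1.11 ± 0.12, adjusted p 3.19e-05) and was lower with the mutant than with the wildtype (-0.98 ± 0.12, adjusted p 9.83e-05). Cenpl and Cenpm, also inner kinetochore genes, rose with the wildtype by 0.61 ± 0.15 and 0.62 ± 0.14. Cdca3, a trigger of mitotic entry listed with passenger complex and shugoshin genes, rose by 0.73 ± 0.12 (adjusted p 0.000534), and Sgol1, the protector of centromeric cohesin, was lower with the mutant than with the wildtype (-0.59 ± 0.15, adjusted p 0.0125).

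Other cytokinesis and abscission genes gave 0 higher and 6 lower of 16 (37.5%) with the wildtype over the empty vector, against 11.4% and 11.9% of all genes. With the mutant over the wildtype they gave 4 higher (25%) and 0 lower, against 13.2% and 12.7% of all genes. Sept6, a septin of the cell cortex, had 64.7, 71.9 and 68.0 CPM in mutant cells, 29.4, 28.8 and 28.3 CPM in wildtype cells and 70.9, 79.8 and 84.4 CPM in empty vector cells. Wildtype libraries were the low group by a wide margin (-1.44 ± 0.12 over the empty vector, edgeR adjusted p 2.30e-06; mutant over wildtype 1.24 ± 0.12, adjusted p 1.04e-05). Sept9, a septin needed for abscission, had 319.5, 313 and 268 CPM in mutant cells, 138, 149 and 152 CPM in wildtype cells and 252, 316 and 345 CPM in empty vector cells. It showed the same order (-1.06 ± 0.13, adjusted p 8.06e-05). The other 4 that fell, named after their values were seen, were Vps4b (-0.64), Rock2 (-0.69), Sept11 (-0.47) and Pdcd6ip (-0.45), of which Vps4b and Pdcd6ip belong to the ESCRT machinery. Cep55, the midbody protein that recruits ESCRT, listed with spindle and centrosome genes, had 32.7, 33.5 and 35.5 CPM in mutant cells, 16.6, 20.2 and 25.6 CPM in wildtype cells and 42.2, 42.4 and 32.8 CPM in empty vector cells. It fell with the wildtype (-0.91 ± 0.17, adjusted p 0.00174) and was higher with the mutant than with the wildtype (0.70 ± 0.17, adjusted p 0.00927).

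The remaining lists stand against 11.4% of all genes called higher and 11.9% lower for wildtype over empty vector. For mutant over wildtype, the shares of all genes were 13.2% and 12.7%. Spindle and centrosome genes gave 3 higher and 1 lower of 31 with the wildtype over the empty vector, with Haus8, an augmin subunit, at 0.65 ± 0.14 (edgeR adjusted p 0.00439), and 3 higher and 3 lower with the mutant over the wildtype. Cohesin and its regulators gave 1 higher of 13, the cohesin loader Mau2 (0.38 ± 0.12, adjusted p 0.0317), and condensin II 1 higher of 3, Ncaph2 (0.49 ± 0.14, adjusted p 0.0239). Among 11 genes of the DREAM and MuvB complexes with MYBL2, which bind the homology region letters, 0 were higher and 1 was lower with the wildtype, the pocket protein gene Rbl2 (-0.40 ± 0.13, adjusted p 0.0371). With the mutant over the wildtype Rbl2 was higher (0.41 ± 0.13, adjusted p 0.031) and Lin52, a MuvB subunit, lower (-0.75 ± 0.20, adjusted p 0.0168).

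**Figure D5:**
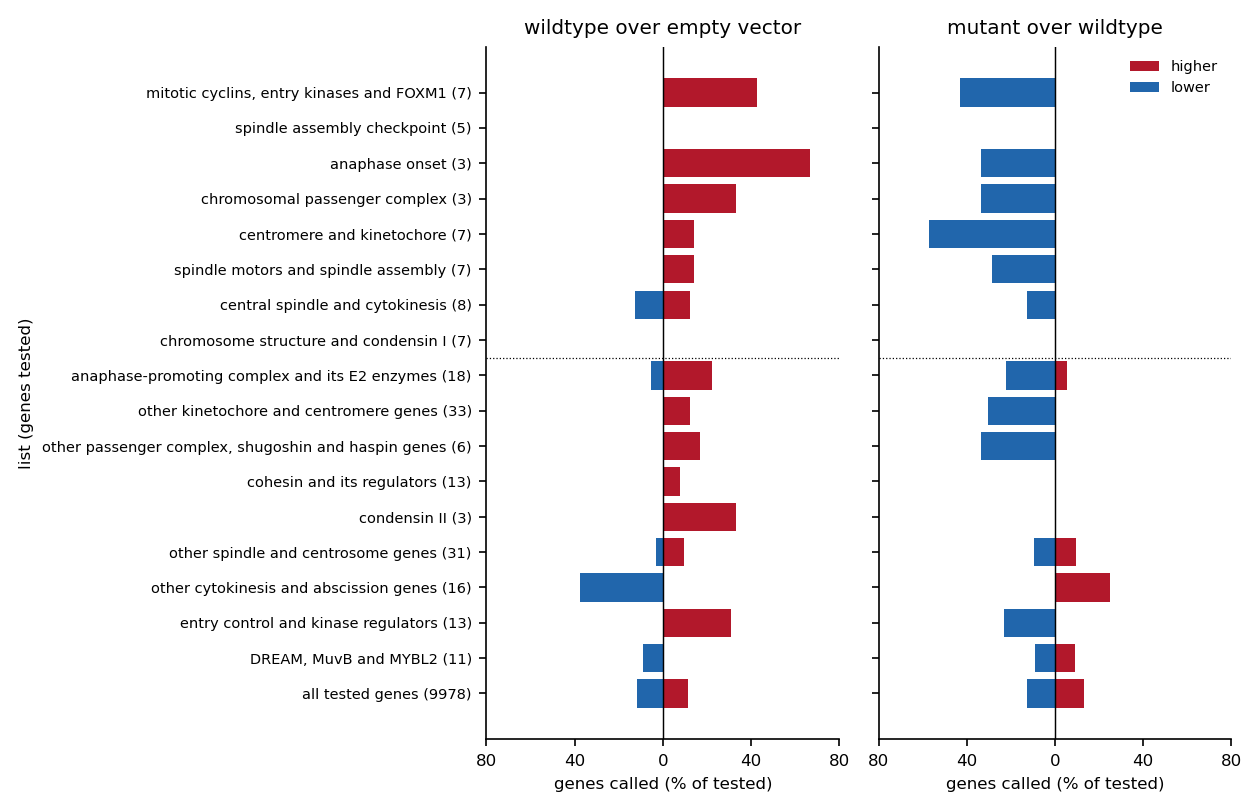
Share of tested genes called higher (red, to the right) and lower (blue, to the left) for the role groups of the 47 genes (above the dotted line), the 9 lists of other mitosis genes and all 9978 tested genes, for wildtype over empty vector and mutant over wildtype; numbers of genes tested stand in parentheses. Other cytokinesis and abscission genes reach 37.5% lower with the wildtype and 0 higher, and the kinetochore lists are blue without red for mutant over wildtype.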

How the data were processed

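RNA was measured in 9 bulk libraries of G1E cells in 3 groups of 3. Total RNA was made into Smart-seq2 libraries, a method whose cDNA carries no strand, with Nextera-based indexing, per the labels' protocols. The deposited file is a single table of unnormalised read counts by gene, with 27999 rows, of which 1 is human GATA1, and 12975 without a count. STAR, GRCm38.p4 and hg19 are named in the submitters' processing notes, per the labels. How reads were counted, with which annotation, strand setting and rule for several matches, and the version of STAR, are not given in the sources used.

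The count test was edgeR 4.0.16 under R 4.3.3 (quasi-likelihood, TMM factors, filterByExpr with a minimum count of 10, 1 mean per group, 6 residual degrees of freedom). The human GATA1 row was left out of the tests. Benjamini-Hochberg adjustment ran over all 9978 tested genes of a comparison, and a gene was called at an adjusted p under 0.05. The SE of a log2 fold change is its size divided by the root of F. CPM used TMM-scaled library sizes, except human GATA1, which used library totals. Alternatives used DESeq2 1.42.0, other scaling and filters, length and GC offsets, blocks and left-out libraries.

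Coordinates, exon lengths and overlaps are from GENCODE M21 (GRCm38), matched by symbol for all 47 genes, and promoters from RefSeq (GRCm38.p6). The 47 genes, their roles and the lists were chosen with earlier results of these data known. All 47 may be named; values per library were given for called genes within the 3 smallest p of their role in any comparison, and for Ccnb1, Cdk1, Plk1, Aurkb, Top2a and Mki67. Of each other list the 2 genes with the smallest p per comparison may be named; of the others named here, each is said to be chosen after its values were seen, or is a partner of an overlap. Labels do not say what a replicate number shares. Deviations of same-numbered libraries correlated at 0.17 to 0.53 between mutant and wildtype. The largest correlation between differently numbered libraries of these groups was 0.24 for numbers 1 and 2 and -0.29 for number 3. Pairing was thus clear for number 3 only, and taking all numbers as pairs is an assumption. Values come from the fit without a block. For mutant over wildtype, values from the block in 6 libraries stand beside them where they change a call. For wildtype over empty vector, the calls lost with that block are given with the left-out libraries. Correlations of same-numbered libraries were -0.44 to -0.20 between either group and the empty vector. Mutant replicates 1 and 2 were the most alike pair (chi-square per degree of freedom 2.21, against 15.0 to 55.5 for other pairs of a group) and were kept as 2 libraries.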

Additional observations from a re-analysis of the deposited data

How the results depend on the processing

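Counts of called genes among the 47 were recomputed under 22 alternatives, of which the block in 6 libraries and the fit to replicates 1 and 2 of each group were chosen after seeing the data. Counts over all tested genes stand in parentheses, higher then lower. For wildtype over empty vector, main counts of 9 higher and 1 lower (1137, 1186) became 22 higher with length and GC offsets (1645, 1842), 2 lower without a filter on low counts (1319, 1483), 0 lower when fitted to 6 libraries (879, 845) and 8 lower with replicates 1 and 2 alone (2045, 2521). For mutant over wildtype, 12 lower and 0 higher (1313, 1267) became 17 lower and 2 higher with length and GC offsets (1756, 1575), 7 lower and 0 higher with mutant replicates 1 and 2 summed (779, 772), and 16 lower and 1 higher with replicates 1 and 2 alone (1952, 2029). For mutant over empty vector, 0 and 0 (21, 6) became 2 higher without the filter (119, 296), and 8 higher and 12 lower with replicates 1 and 2 alone (1089, 1819). Leaving out 1 library at a time gave 8 to 11 higher and 0 to 3 lower for wildtype over empty vector (732 to 1614, 655 to 1641), 7 to 14 lower and 0 to 0 higher for mutant over wildtype (693 to 1581, 778 to 1577), and 0 to 3 in each direction for mutant over empty vector (5 to 227, 2 to 610).

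Blocking on the replicate number, all 9 libraries fitted, wildtype over empty vector gave 0 lower and the other counts stayed at 9 higher, 12 lower for mutant over wildtype, and 0. With that block in the 6 libraries compared, wildtype over empty vector gave 5 higher and 0 lower (723, 709), where the numbers were not taken as pairs, and mutant over wildtype 20 lower and 1 higher (2323, 2417), where they were.

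The counts of members stayed at 9 higher and 1 lower for wildtype over empty vector under each scaling tried. With library totals in place of TMM, the median log2 fold change of all genes was -0.13 for wildtype over empty vector and 0.10 for mutant over wildtype, the calls among all genes were 901 higher and 1500 lower (1137 and 1186 with TMM) and 1823 higher and 918 lower (1313 and 1267), and 9 members were lower with the mutant than with the wildtype. Espl1 changed direction for mutant over wildtype with length and GC offsets, at -0.23 (adjusted p 0.035) against 0.12; the cause was not tested. With 3 libraries a group, a p that misses the threshold does not show that a gene was unchanged.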
